A study of Mus musculus with 24 samples.

Results

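The genes described here are those in which MC38-MOCK#1, a mock-transfected control line, and MC38-DKO, a double knockout line, held a common level that set both apart from the 3 lines MC38-WT, MC38-CMAS KO and MC38-COSMC KO. A gene was a member when MC38-MOCK#1 and MC38-DKO each differed from all 3 of the other lines in the same direction, with an adjusted p below 0.05 in limma for each of the 6 pairs of lines. Of 52636 genes in the table, 21144 had at most 10 zeros among the 15 samples of these lines, and 658 of those were members. In MC38-MOCK#1 and MC38-DKO, 306 members were higher and 352 were lower. These shares are 1.45% and 1.66% of the genes tested, 3.11% in both directions. The members were thus chosen by the measured values of these 15 samples, so their differences between these 5 lines are given as a description, without a test.

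RNA was measured by sequencing in 24 samples, 3 from each of 8 lines of MC38, a mouse colon carcinoma cell line of C57BL/6 origin. MC38-WT is the unedited line. MC38-CMAS KO carries a CRISPR-Cas9 knockout of Cmas, the enzyme that activates sialic acid for transfer onto glycans. MC38-COSMC KO carries a knockout of C1galt1c1, which encodes COSMC, the chaperone of the T-synthase that elongates the Tn antigen. MC38-DKO carries both knockouts, and MC38-MOCK#1 received the construct with no target. MC38-MOCK#2, MC38-FUT4 and MC38-FUT9 belong to a second set, made with an activating dCas-VPR construct without a target or aimed at the fucosyltransferase genes Fut4 and Fut9. All lines were grown in DMEM with 10% FCS, and all except MC38-WT received puromycin. MC38-MOCK#1, MC38-CMAS KO, MC38-COSMC KO and MC38-DKO were sampled at passages 4, 5 and 6, and MC38-WT at passages 7, 8 and 9. MC38-MOCK#2 and MC38-FUT9 were sampled at passages 6, 7 and 8, and MC38-FUT4 at passages 7, 8 and 7. MC38-MOCK#1 and MC38-DKO thus share no target, and their passages are those of MC38-CMAS KO and MC38-COSMC KO. Per the study methods, MC38-COSMC KO was sorted in bulk for binding of a lectin to the Tn antigen, and how the other lines were selected beyond puromycin is not given in the sources used here. The 3 samples of a line measure the spread between its cultures, not between separately made lines.

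Tumour cells of this kind make part of the extracellular matrix around them, a mesh of collagens and glycoproteins that proteases cut and TIMP proteins protect. Along the epithelial-mesenchymal axis, ZEB1 and SNAI1 are transcriptional repressors that bind CAGGTG E-boxes and hold epithelial genes down, while OVOL2 is a repressor that favours the epithelial state. Members of the matrix and of this axis were found in both directions.

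The deposited values, which are read counts scaled by the authors and rounded, summed to between 10911849 and 12263307 per sample. From the whole numbers that no gene takes, 1 read was worth about 1.67 units in the sparsest library, MC38-WT sample 3, and 1.56 units in MC38-DKO sample 1, so differences among values below about 3 were within the rounding of 1 or 2 reads. Cmas stood at 122 to 142 in MC38-DKO and 93 to 126 in MC38-CMAS KO, below the 272 to 416 of every other line. C1galt1c1 stood at 166, 175 and 206 in MC38-DKO, which overlapped the 152 to 215 of MC38-CMAS KO, and at 124 to 163 in MC38-COSMC KO. An edit that disrupts a protein need not lower its RNA. The line labelled MC38-FUT4 held 1, 0 and 1 units of Fut4 and 209, 171 and 186 units of Fut9, so its RNA goes against its label. It is called the line labelled MC38-FUT4 below. Fut9 stood at 955, 641 and 676 in MC38-FUT9. Markers of colon epithelium were low or absent: Cdx2 was at 0 in all 15 samples, and Epcam was at 1 or below. Krt20 reached 44, Krt8 reached 8 and Vil1 reached 6 in these samples. The summed level of 12 colon epithelium markers was 12 to 22 in MC38-MOCK#1 and MC38-DKO and 13 to 63 in the other 3 lines. The 10 fibroblast markers summed to 705 to 1037 against 1086 to 2508, the 13 leukocyte markers to 296 to 391 against 292 to 514, and the 9 endothelial markers to 4 to 17 against 3 to 17. Muscle and nerve markers, 12 genes, summed to 1377 to 1639 against 937 to 1316. Thy1 and Cd3e were at 0 in all 24 samples. Pdgfrb and Map2 are themselves members, and the part of other cell types in the results was not tested.

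Between MC38-MOCK#1 and MC38-DKO, 85 genes were called, which is 0.402% of those tested. MC38-MOCK#1 differed from MC38-WT, MC38-CMAS KO and MC38-COSMC KO in 2590, 1852 and 2522 genes, or 12.2%, 8.76% and 11.9%. MC38-DKO differed from the same lines in 3082, 2010 and 2899 genes, or 14.6%, 9.51% and 13.7%. Among MC38-WT, MC38-CMAS KO and MC38-COSMC KO the pairs gave 332 called genes (MC38-WT and MC38-CMAS KO, 1.57%), 622 (MC38-WT and MC38-COSMC KO, 2.94%) and 312 (MC38-CMAS KO and MC38-COSMC KO, 1.48%). All pairs that cross between the 2 groups of lines held more called genes than any pair within a group. The labels do not set these 2 groups, which were taken from these same values. The counts are thus a description and no test of the grouping. The pairs share samples and are not independent of each other.

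**Figure D1:**
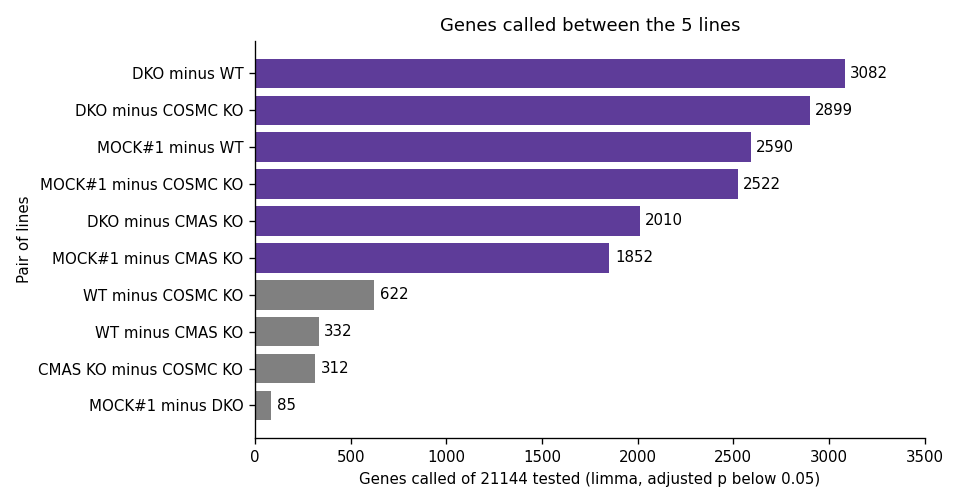
Bars give the number of genes called by limma at an adjusted p below 0.05, of 21144 tested, for each of the 10 pairs of the 5 lines. Purple bars are pairs that cross between MC38-MOCK#1 or MC38-DKO and the other 3 lines (1852 to 3082 genes), and grey bars are pairs within either group (85 to 622 genes).

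In 297 of the 306 higher members and 344 of the 352 lower members, none of the 6 samples of MC38-MOCK#1 and MC38-DKO overlapped any of the 9 samples of the other lines. Over all genes tested, which include the members, the 6 samples lay above the 9 in 3.22% and below them in 2.93%, or 6.14% in all. Without MC38-MOCK#1 sample 1 the rule gave 184 higher members and without sample 2 it gave 185, while lower members numbered 249 or more with any 1 sample left out. On the log2(value + 1) scale, the median difference between the mean of MC38-MOCK#1 and MC38-DKO and the mean of the other 3 lines was 0.90 for higher and -0.94 for lower members. Even the smallest of the 6 differences exceeded 1 in 93 higher and 138 lower members, and exceeded 2 in 29 and 65. Protein-coding genes made up 96.4% of the higher and 94.6% of the lower members, beside 66.2% of all genes that passed the filter. The members were also more abundant, with a median value of 243 and 403 over the 15 samples, beside 61.3 for all genes that passed. Genes averaging under 10 rarely meet the rule. They were 7613 of the 21144 genes that passed, but only 11 of the higher and 19 of the lower members. How far this limit of the rule sets both traits was not tested.

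Timp3, which encodes an inhibitor of matrix metalloproteinases bound to the matrix, had the largest shared difference of all members. Its values were 5, 4 and 4 in MC38-MOCK#1 and 5, 3 and 1 in MC38-DKO. In MC38-WT they were 519, 615 and 697, in MC38-CMAS KO 957, 1113 and 1186, and in MC38-COSMC KO 761, 943 and 877. The 2 groups of lines did not come near each other, and the log2 difference was -7.55. Col6a3, a chain of the microfibrillar collagen VI, stood at 108, 96 and 110 in MC38-MOCK#1 and at 141, 121 and 228 in MC38-DKO. It stood between 2311 and 4292 in the 9 samples of the other lines, a log2 difference of -4.75. Unlike Timp3 it was thus still well above 0 in both lines.

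The other leading lower members were close to silent in MC38-MOCK#1 and MC38-DKO. Stxbp2, a syntaxin-binding protein of vesicle secretion, was at 0 to 5 in these 6 samples and at 65 to 213 in the other 9. Arhgap30, a GTPase-activating protein, was at 2 to 9 against 92 to 172. Itgb8, the integrin subunit that activates latent TGF-beta, was at 0 to 2 against 24 to 90. Magea10, a cancer-testis antigen of the X chromosome, was at 0 to 3 against 50 to 125. Sorcs2, a sorting receptor, was at 0 to 3 against 30 to 205. Ngef, an exchange factor of ephrin signalling, was at 0 to 4 against 54 to 94, and Ptchd1, a Patched-domain membrane protein, was at 0 to 5 against 52 to 148. Colec12, a scavenger receptor, was at 0 to 2 against 65 to 184, Pet2 at 0 to 7 against 122 to 374, and the antisense RNA Six3os1 at 0 to 2 against 28 to 128. In none of these genes did a sample of one group reach the range of the other.

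Higher members were seldom silent in the other 3 lines: 7 of the 306 were at 3 or below in all 9 samples, and 1 was at 0 in all. Most lower members were not silent either. In MC38-MOCK#1 and MC38-DKO, 40 of the 352 were at 3 or below in all 6 samples, and 13 were at 0 in all. Ovol2, the zinc finger repressor named above, was at 194, 167 and 134 in MC38-MOCK#1 and at 159, 205 and 239 in MC38-DKO. It was at 24, 11 and 13 in MC38-WT, 9, 12 and 24 in MC38-CMAS KO and 26, 20 and 18 in MC38-COSMC KO. The lowest sample of the first 2 lines was above the highest of the other 3, and the log2 difference between the means of the 2 groups was 3.38. The smallest of its 6 differences between lines was 2.89. Wfdc2, a secreted whey acidic protein domain protein of epithelia, was at 413 to 536 against 30 to 98, a difference of 2.89. Arl6ip1, which shapes the endoplasmic reticulum, was at 251 to 347 against 46 to 77. Efhc2, an EF-hand protein, was at 267 to 383 against 23 to 98.

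Further leading higher members encode surface, matrix and regulatory proteins. Pdpn, the mucin-type glycoprotein podoplanin, was at 43 to 107 against 2 to 24. Col4a6, a chain of basement membrane collagen, was at 89 to 146 against 11 to 39, and Mfap5, a microfibril glycoprotein, at 40 to 66 against 6 to 15. Hoxc10, a homeobox factor, was at 65 to 99 against 6 to 19. Adam3, a membrane protein known from sperm, was at 64 to 126 against 12 to 25. Tmem171, a membrane protein, was at 46 to 66 against 0 to 15. Tigit, a checkpoint receptor known from lymphocytes, was at 23 to 123 against 3 to 23, and the lowest MC38-DKO sample and the highest MC38-WT sample were equal. Tigit and Tmem171 were no longer called in 11 and 12 of 29 alternative settings. Of the 24 leading genes, Ovol2, Adam3, Hoxc10, Timp3, Six3os1, Ngef and Ptchd1 share annotated exon bases with another gene. Reads over several genes were left out of the counts, so reads in the shared bases may be missing from their values.

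**Figure D2:**
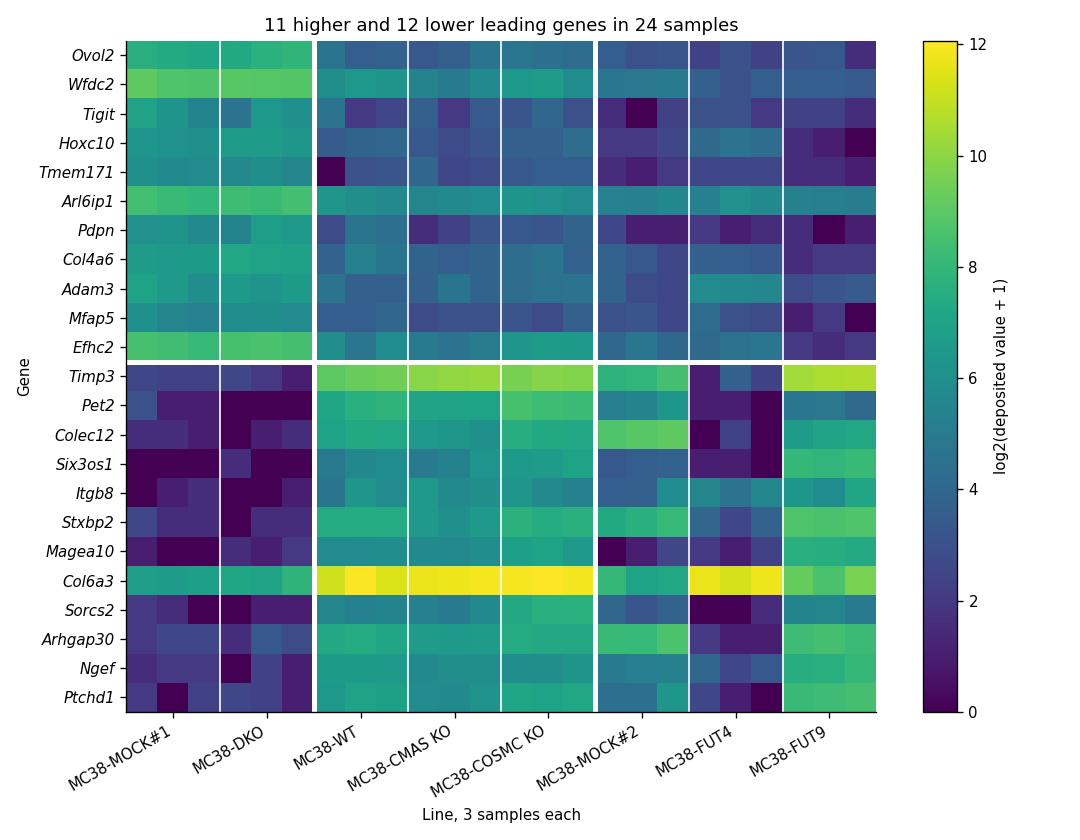
Each row is 1 of 11 of the higher (top) and the 12 lower (bottom) leading genes, each column 1 of 24 samples, and colour gives log2(deposited value + 1). Thick white lines separate MC38-MOCK#1 and MC38-DKO, the other 3 lines that chose the genes, and the 3 lines that did not, and Timp3 runs from 1 to 5 units in the first 6 columns against 519 to 1186 in the next 9.

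The matrix genes fell on both sides, with more members lower. Of 20 collagen genes that passed the filter, 3 were lower and 2 higher, and the median difference over all 20 was -0.51, beside 0.0093 for all genes tested. The 3 lower ones, Col6a1, Col6a2 and Col6a3, together form collagen VI. Col6a1 ranged from 110 to 858 in MC38-MOCK#1 and MC38-DKO and from 1641 to 6724 in the other lines. Col6a2 ranged from 46 to 554 against 856 to 2416. In both, MC38-MOCK#1 sample 3 was the highest of its side, at 858 and 554. The higher collagens were Col4a6 and Col8a1. Among 45 other matrix genes, Sparc, Loxl3, Matn2 and Ccn4 were lower and Mfap5 higher, with a median of -0.46. Sparc, a collagen-binding glycoprotein, was at 364 to 531 against 1155 to 1816. Of 31 proteases and inhibitors 3 were members, all lower. They include Timp3 and the membrane metalloproteinase Mmp16, at 5 to 20 against 76 to 144.

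Of 38 genes of the BMP and TGF-beta pathway, 3 were members, and the median difference over all 38 was -0.063. Grem1, a secreted BMP antagonist, was at 19, 13 and 14 in MC38-MOCK#1 and at 59, 95 and 92 in MC38-DKO. It was at 1161, 1697 and 1766 in MC38-WT, at 441, 476 and 588 in MC38-CMAS KO and at 544, 617 and 761 in MC38-COSMC KO. MC38-DKO thus sat between MC38-MOCK#1 and the other lines, without overlap on either side. Ltbp1, which stores latent TGF-beta in the matrix, was higher at 1440 to 1949 against 661 to 1046, and Bmp1, a procollagen-processing protease, at 732 to 936 against 507 to 703.

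Some regulators of the mesenchymal state were lower and a pair of epithelial or mesothelial genes was higher, while most genes of either list were no members. Of 30 mesenchymal genes, Prrx1, Snai1, Zeb1 and Pdgfrb were lower and Cdh2 higher. The median difference over all 30 was -0.11, beside 0.0093 for all genes tested. Prrx1, a homeobox factor of mesenchyme, was at 147 to 239 against 723 to 1182. Zeb1 was at 102 to 143 against 236 to 371, and Snai1 at 171 to 305 against 426 to 591. Pdgfrb, the receptor for PDGF-B, was at 27 to 189 against 298 to 668. Cdh2, N-cadherin, commonly counted as a mesenchymal marker, went the other way, at 393 to 483 against 124 to 296. Of 21 epithelial and mesothelial genes, Ovol2 and Msln were higher, and the median over all 21 was 0.11. Msln, the surface protein mesothelin, was at 2279 to 4147 against 620 to 1757. Cdh1, E-cadherin, was at 0 to 2 in all 15 samples.

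**Figure D3:**
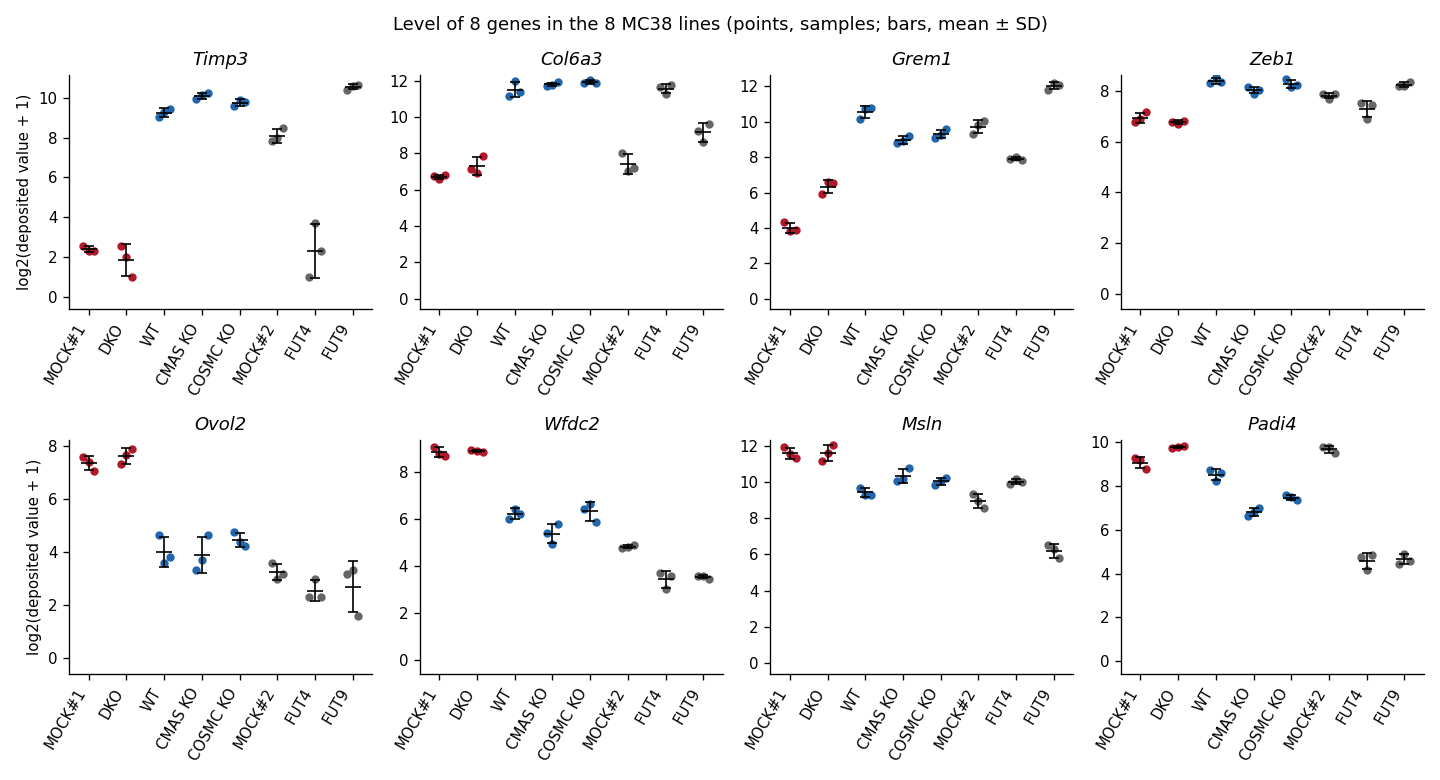
Each panel gives log2(deposited value + 1) of 1 gene, with a point per sample and a bar for the mean ± SD of 3 samples. Red points are MC38-MOCK#1 and MC38-DKO, blue points the 3 lines they were compared with, and grey points the 3 lines that did not choose the genes. Timp3, Col6a3, Grem1 and Zeb1 are low in red, Ovol2, Wfdc2, Msln and Padi4 are high, and the grey lines go with either side depending on the gene.

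After members on this axis were found in both directions, the promoters of the members were searched for the CAGGTG E-box. The motif was thus chosen with these members known. The search covered the 250 bases before a transcription start, on both strands, in RefSeq promoters of GRCm38.p6, which matched 215 higher and 264 lower members. CAGGTG or its reverse complement CACCTG was present in 58 promoters of higher members, 27.0%. It was present in 31 promoters of lower members, 11.7%. Over the 11785 promoters of all genes that passed the filter the share was 15.2%, and over the 9214 promoters of genes whose values averaged 10 or more it was 13.6%. The GC box GGGCGG was in 56.7% of higher and 62.5% of lower members and in 55.9% of all genes that passed. CCAAT was in 36.7%, 31.8% and 36.8%, the AP-1 site TGACTCA in 5.12%, 3.41% and 3.45%, and the TATA box TATAAA in 6.51%, 6.06% and 7.13% of the same sets. Over the genes averaging 10 or more, the shares were 61.7% for the GC box, 38.1% for CCAAT, 2.75% for the AP-1 site and 5.82% for the TATA box. The AP-1 share of higher members, from 11 promoters, was thus also above that of such genes. No motif contains another, and of these motifs the E-box had the shares furthest apart between higher and lower members. Letters in a promoter do not show that a factor binds there. Whether ZEB1, SNAI1 or any other factor acts on these members was not tested.

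Promoters of 5 named members that hold the motif and no annotated exon base are shown as examples, with the E-box in capitals, to show where the motif lies in members of either direction. All are the 250 bases before the start, read 5′ to 3′ on the gene's own strand. Card10, an adaptor of NF-kappaB signalling, Abcc4, a drug efflux pump, and B3gnt3, which extends core O-glycans, are higher members. Snai1 and Sulf2, a heparan sulfate sulfatase, are lower members.
Card10 (chr15:78803043-78803292, minus strand): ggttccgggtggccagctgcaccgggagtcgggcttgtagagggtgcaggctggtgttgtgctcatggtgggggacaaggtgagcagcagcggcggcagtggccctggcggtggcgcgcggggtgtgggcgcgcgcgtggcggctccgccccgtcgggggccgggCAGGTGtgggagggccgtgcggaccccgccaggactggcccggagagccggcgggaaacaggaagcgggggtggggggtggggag
Abcc4 (chr14:118706220-118706469, minus strand): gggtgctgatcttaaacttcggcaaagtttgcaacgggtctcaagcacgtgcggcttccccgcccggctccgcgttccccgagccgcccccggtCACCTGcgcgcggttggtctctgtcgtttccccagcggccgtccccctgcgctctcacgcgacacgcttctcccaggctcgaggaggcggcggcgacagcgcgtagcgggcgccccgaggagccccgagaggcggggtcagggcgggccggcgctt
B3gnt3 (chr8:71701801-71702050, minus strand): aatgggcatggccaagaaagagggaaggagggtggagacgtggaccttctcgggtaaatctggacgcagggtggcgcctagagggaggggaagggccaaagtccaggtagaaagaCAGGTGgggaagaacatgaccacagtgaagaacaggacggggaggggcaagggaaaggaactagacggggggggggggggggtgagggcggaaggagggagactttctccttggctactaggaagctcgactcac
Snai1 (chr2:167537945-167538194, plus strand): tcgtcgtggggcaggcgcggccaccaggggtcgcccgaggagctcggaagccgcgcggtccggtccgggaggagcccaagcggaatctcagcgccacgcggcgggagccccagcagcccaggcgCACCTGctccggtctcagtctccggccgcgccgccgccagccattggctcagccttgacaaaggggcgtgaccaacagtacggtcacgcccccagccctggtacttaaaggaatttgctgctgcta
Sulf2 (chr2:166155684-166155933, minus strand): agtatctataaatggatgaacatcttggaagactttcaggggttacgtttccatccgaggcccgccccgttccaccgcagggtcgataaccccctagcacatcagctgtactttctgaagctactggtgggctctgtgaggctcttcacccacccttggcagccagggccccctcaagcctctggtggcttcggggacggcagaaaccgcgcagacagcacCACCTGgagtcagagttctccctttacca
Card10 was at 62 to 140 in MC38-MOCK#1 and MC38-DKO and at 5 to 46 in the other 3 lines. Abcc4 was at 1257 to 1397 against 809 to 1084, and B3gnt3 at 403 to 502 against 197 to 309.

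In the lists for signalling and guidance, members were mostly lower. Over all genes tested, 1.45% were higher and 1.66% lower members. The adhesion list gave Itgb8, Clmp, Sdc2 and Sdc3 of 33, and Clmp, a tight junction adhesion protein, was at 4 to 18 against 133 to 249. The guidance list gave Plxna3, Plxna4, Nrp1 and Ntn1 of 48, and Ntn1, netrin-1, was at 17 to 99 against 120 to 282. Both lists held only lower members, but their medians over all genes of the list were -0.00065 for adhesion and -0.16 for guidance. Of 30 chemokine and cytokine genes only Ccl7, a monocyte chemoattractant, was a member, at 11 to 22 against 44 to 185. Igfbp4, an IGF-binding protein, was at 451 to 599 against 1015 to 2158. Of 31 MAPK feedback and early genes Phlda1 was lower, and of 29 Wnt pathway genes none was a member. Of 31 Hox genes that passed, Hoxc10 and Hoxb9 were higher.

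In the immune and metabolic lists, members went in both directions. None of 56 interferon-stimulated genes met the rule, although their median difference was 0.38. Of 23 genes of MHC class I and peptide loading, Psmb10, an immunoproteasome subunit, was higher at 923 to 1196 against 674 to 872, and the median of the list was 0.46. Among 35 O-glycan and sialic acid enzymes, B3gnt3 was higher and St3gal4, a sialyltransferase, lower at 324 to 367 against 414 to 605. Slc7a11, the cystine transporter, was lower at 561 to 1068 against 1199 to 2283. Shmt2, a mitochondrial folate enzyme, was lower at 4961 to 6086 against 7347 to 8878, and Scd2, a fatty acid desaturase, at 12927 to 21325 against 24173 to 33475. Of 43 cell cycle genes, Cdk2 and Cdc25b were lower, with log2 differences of -0.37 and -0.32. Pfkp of glycolysis and Tigar were higher, with log2 differences of 0.40 and 0.37, and Eda2r, a p53 target, was lower at 13 to 35 against 98 to 172. Imprinted genes gave Snrpn and Zrsr1, at 20 to 37 and 16 to 45 against 0 to 5 and 0 to 3, and Igf2r, lower at 268 to 715 against 923 to 1553. Of 745 genes in the 23 lists that passed the filter, 53 were members, beside 3.11% of all genes tested. The lists were chosen with earlier results of these data known. Of the 658 members 605 were in none of the 23 lists, so the lists describe a small part of the set.

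MC38-MOCK#2, MC38-FUT9 and the line labelled MC38-FUT4 did not choose the members, and comparisons among them are independent of the rule. Of the lower members, 349 could be tested in these 9 samples. In MC38-FUT9 against the line labelled MC38-FUT4, 266 of them were higher (76.2%) and 18 lower, at an adjusted p below 0.05 in limma. Over all 21395 genes tested, 15.5% were called higher and 15.6% lower. Of 303 higher members, 173 were lower in MC38-FUT9 (57.1%) and 17 higher. Over the 13451 expressed genes, those averaging 10 or more, 22.6% were called higher and 20.1% lower. Members thus differed between MC38-FUT9 and the line labelled MC38-FUT4 more often than genes at large, and mostly with MC38-FUT9 on the side of MC38-WT, MC38-CMAS KO and MC38-COSMC KO.

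Against MC38-MOCK#2, MC38-FUT9 was higher in 239 lower members (68.5%) and lower in 14, beside 13.2% and 13.3% of all genes. It was lower in 160 higher members (52.8%) and higher in 14. Over the expressed genes, 18.9% were called higher and 18.6% lower in MC38-FUT9 than in MC38-MOCK#2. The line labelled MC38-FUT4 was less one-sided against MC38-MOCK#2. It was lower in 141 lower members (40.4%) and higher in 81 (23.2%), beside 10.9% and 10.5% of all genes. Of the higher members, it was higher in 75 and lower in 60. Over the expressed genes, 15.5% were called lower and 13% higher in this line than in MC38-MOCK#2. The 3 comparisons share samples, so their counts are not independent of each other. Marker levels also differed among these lines: the fibroblast markers summed to 6262 to 15568 in MC38-MOCK#2, 5533 to 7164 in the line labelled MC38-FUT4 and 1682 to 3034 in MC38-FUT9, with Thy1 at 0 in each. The colon epithelium markers summed to 270 to 481 in the line labelled MC38-FUT4, mostly Krt20, and to 27 or below in the other two. Their part in these results was not tested.

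**Figure D4:**
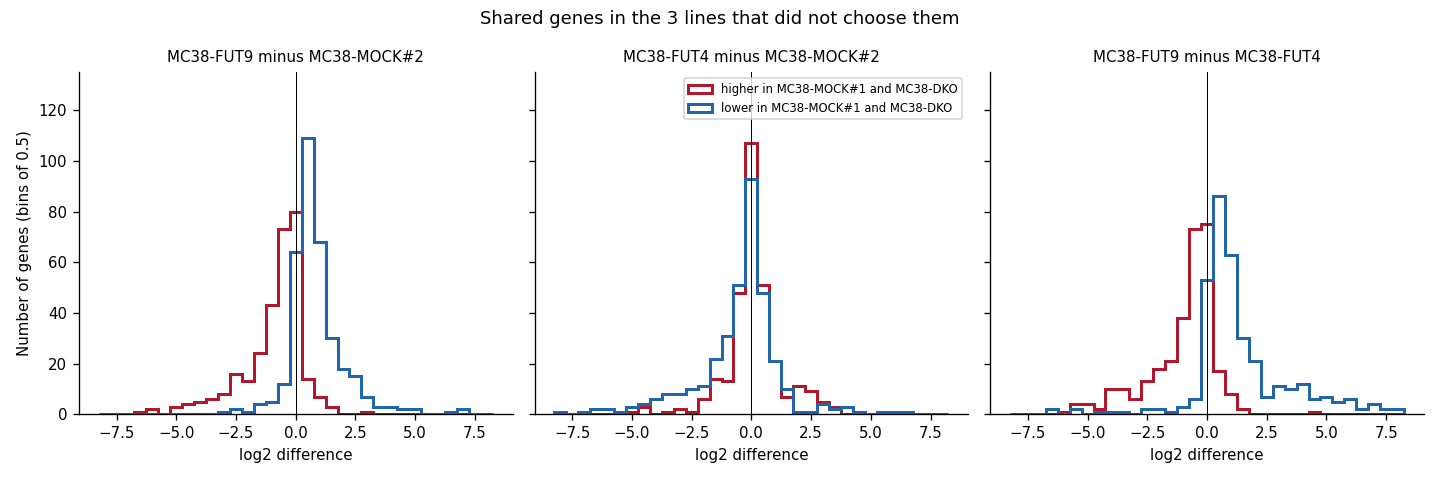
Histograms of the log2 differences of the members between the 3 lines that did not choose them, in bins of 0.5, with 303 higher members in red and 349 lower members in blue. In the first and last panel, which set MC38-FUT9 against MC38-MOCK#2 and the line labelled MC38-FUT4, the lower members lie mostly above 0 (medians 0.60 and 0.84) and the higher members mostly below (medians -0.49 and -0.58).

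A position of 0 was given to the mean of MC38-WT, MC38-CMAS KO and MC38-COSMC KO and a position of 1 to the mean of MC38-MOCK#1 and MC38-DKO. For lower members the median position was 0.29 in MC38-MOCK#2, 0.49 in the line labelled MC38-FUT4 and -0.44 in MC38-FUT9. For higher members it was -0.035, 0.053 and -0.70. Over all genes that passed it was 0.28, 0.30 and -0.25, so the lower members in MC38-MOCK#2 were near the level of genes at large. MC38-FUT9 lay beyond the 3 lines, on the far side from MC38-MOCK#1 and MC38-DKO, in 83.5% of lower and 85.6% of higher members, beside 55.9% of all genes that passed. The line labelled MC38-FUT4 was nearer to MC38-MOCK#1 and MC38-DKO in 171 of 352 lower members (48.6%) and in 61 of 306 higher members (19.9%), beside 44.2% of all genes that passed. The share of lower members was thus close to that of genes at large, and the share of higher members was below it. In 131 lower members (37.2%) it alone of the 3 lines was nearer to MC38-MOCK#1 and MC38-DKO, beside 16.3% of all genes that passed.

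Near-silent genes were then counted by level alone. In MC38-MOCK#1 and MC38-DKO, 40 lower members were at 3 or below in all 6 samples, and 28 of these were above 3 in all 9 samples of the other 3 lines. Of the 28, 18 (64.3%) were also at 3 or below in all samples of the line labelled MC38-FUT4. In MC38-MOCK#2 this held for 3 and in MC38-FUT9 for 2. Over the 13461 genes above 3 in all 9 samples, 0.416%, 0.394% and 1.34% were at 3 or below in the line labelled MC38-FUT4, MC38-MOCK#2 and MC38-FUT9. These genes were not matched to the 28 for level. The share of the 28 was also above theirs in MC38-MOCK#2 (10.7%) and MC38-FUT9 (7.14%). Medag, Tram1l1 and Mlf1, chosen after their values were seen, were at 0 in all 9 samples of MC38-MOCK#1, MC38-DKO and the line labelled MC38-FUT4. Medag stood at 15 to 33 in MC38-WT, MC38-CMAS KO and MC38-COSMC KO and at 45, 33 and 90 in MC38-FUT9.

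Single members followed different lines. Timp3 was at 1, 12 and 4 in the line labelled MC38-FUT4, at 225, 249 and 359 in MC38-MOCK#2 and at 1338, 1535 and 1570 in MC38-FUT9. Its log2 difference between MC38-FUT9 and the line labelled MC38-FUT4 was 8.19 ± 0.54 (SE; limma, adjusted p = 6.22e-06). Oaf was at 370 to 768 in MC38-FUT9 and at 0, 0 and 1 in the line labelled MC38-FUT4. Arhgap30 was at 3, 1 and 1 in the line labelled MC38-FUT4 and at 268 to 399 in MC38-MOCK#2, a difference of -6.97 ± 0.28 (SE; limma, adjusted p = 1.9e-06). Clmp, Colec12, Hspa12b and Sulf2 were likewise at 11 or below in each sample of the line labelled MC38-FUT4. Snai1 fell by 1.44 ± 0.18 in that line against MC38-MOCK#2 (SE; limma, adjusted p = 0.00047) and Zeb1 by 0.53 ± 0.15 (adjusted p = 0.0363).

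Col6a3 went with other lines than Timp3. It was at 263, 128 and 144 in MC38-MOCK#2 and at 3308, 2513 and 3476 in the line labelled MC38-FUT4, which was higher by 4.17 ± 0.30 on the log2 scale (SE; limma, adjusted p = 3.15e-05). Trpa1, a cation channel, Tenm4, a teneurin, and Rit2, a Ras-like GTPase, were also higher in that line than in MC38-MOCK#2 (limma, adjusted p = 6.85e-05, 0.000227 and 1.74e-05). Trpa1 was at 195, 169 and 167 there and at 1, 2 and 1 in MC38-FUT9. Magea10 was near 0 in both MC38-MOCK#2 and the line labelled MC38-FUT4, at 0 to 5, and at 192, 184 and 166 in MC38-FUT9. Mmp16 was at 437, 397 and 499 in MC38-FUT9 against 11, 15 and 21 in MC38-MOCK#2, a difference of 4.78 ± 0.26 (SE; limma, adjusted p = 4.83e-06). Plxna4, a semaphorin co-receptor, was at 256 to 451 in MC38-FUT9 and at 1 to 3 in MC38-MOCK#2.

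Several higher members had their lowest level in MC38-FUT9. Msln was at 90, 79 and 54 there against 637, 501 and 372 in MC38-MOCK#2, a difference of -2.74 ± 0.22 (SE; limma, adjusted p = 3.63e-05). Hoxb9 was at 1, 2 and 2 in MC38-FUT9 and at 120, 68 and 95 in the line labelled MC38-FUT4. Map2, a neuronal microtubule protein, was at 4, 5 and 3 in MC38-FUT9 and at 336, 324 and 372 in MC38-MOCK#2, which overlapped the 287 to 403 of MC38-MOCK#1 and MC38-DKO. Gsdme, a gasdermin, was at 2 to 5 in MC38-FUT9 and at 319 to 375 in MC38-MOCK#2. Padi4, which converts arginine to citrulline, and Card10 were low in both other lines, Padi4 at 17 to 29 and Card10 at 1 to 5. Padi4 was at 725 to 882 in MC38-MOCK#2. Fndc3c1, Ucp2 and Igf2bp3 were at 1 to 11 in MC38-FUT9 and at 208 to 541 in the line labelled MC38-FUT4. Ovol2 was at 2 to 11 in all 3 lines, below every sample of MC38-MOCK#1 and MC38-DKO, with no call between them (limma, adjusted p = 0.382 to 0.868).

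The members were spread unevenly over the chromosomes. Chromosome 10 held 54 lower and 5 higher members of 1030 genes that passed, and chromosome 13 held 48 higher and 10 lower of 938. Chromosome 14 held 38 lower and 17 higher of 686, and chromosome 15 held 27 lower and 8 higher of 670. Outside chromosomes 10, 13, 14 and 15, 1.28% of genes were higher and 1.25% lower members. For chromosomes and windows, expressed genes are those averaging 50 or more over the 15 samples. On chromosome 10 the whole chromosome leaned the same way: 431 of 519 expressed genes were below 0, with a median difference of -0.22. Against the mean of MC38-WT, MC38-CMAS KO and MC38-COSMC KO, its median was -0.20 in MC38-MOCK#1 and -0.23 in MC38-DKO. It was -0.096 in MC38-WT, -0.021 in MC38-CMAS KO and 0.12 in MC38-COSMC KO. In lines that did not choose the members it was -0.16 in MC38-MOCK#2, 0.081 in the line labelled MC38-FUT4 and -0.093 in MC38-FUT9. On chromosome 15, 348 of 412 were below 0, with a median of -0.19, and on chromosome 13 264 of 391 were above 0, with a median of 0.15. Chromosome 14 as a whole had a median of 0.021. Chromosome 18, with 17 higher and 9 lower members of 480 genes, had a median of 0.14. On chromosome 12, with 21 higher and 10 lower members of 820 genes, 286 of 390 expressed genes were above 0 (median 0.14). These chromosomes were singled out after their values were seen. With each sample's chromosome median removed, an alternative added after seeing the data, 13 lower members were left on chromosome 10, 16 higher on chromosome 13, 39 lower on chromosome 14 and 8 lower on chromosome 15. The numbers of members fell from 306 to 242 and from 352 to 316. Single samples also decided these counts. Chromosome 13 gave 22 and 24 higher members without MC38-MOCK#1 sample 1 and sample 2, 31 without MC38-CMAS KO sample 2 and 29 without MC38-COSMC KO sample 3. Chromosome 10 gave 33 and 34 lower members without MC38-MOCK#1 sample 1 and sample 2, and chromosome 15 gave 15 without MC38-CMAS KO sample 2 or sample 3. DNA copy number was not measured.

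**Figure D5:**
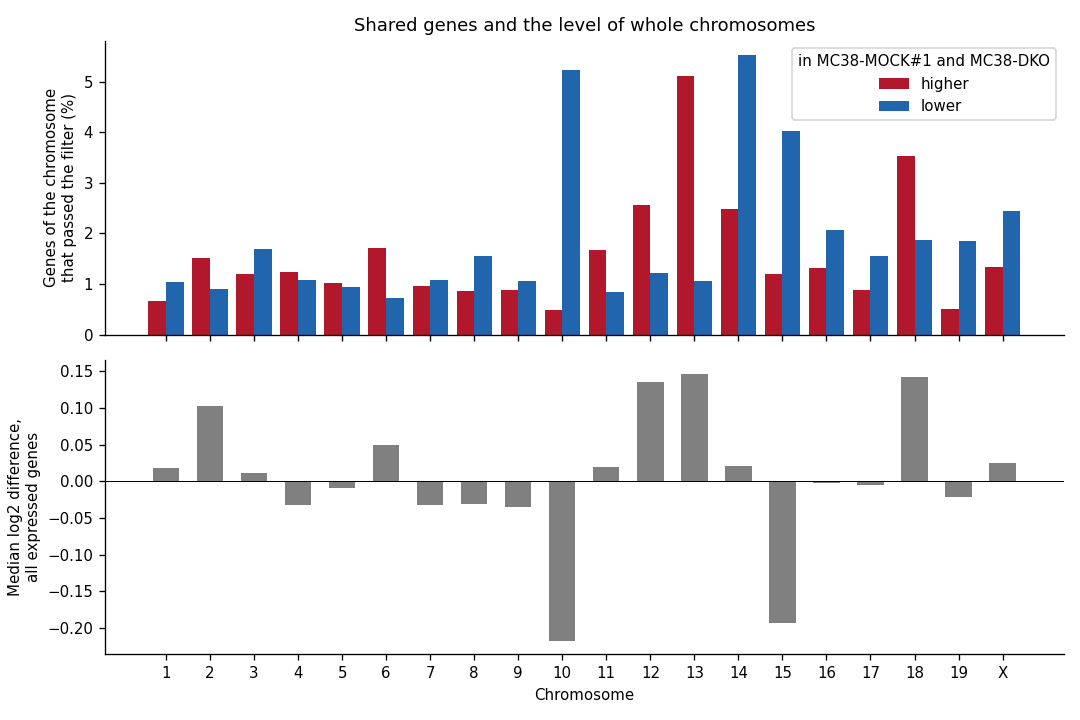
Upper bars give, for each chromosome, the percentage of genes that passed the filter that were higher (red) or lower (blue) in MC38-MOCK#1 and MC38-DKO, and lower bars the median log2 difference of all expressed genes. Expressed genes are those averaging 50 or more over the 15 samples. Chromosomes 10, 14 and 15 stand out for lower members and chromosome 13 for higher ones, and the medians of chromosomes 10, 13 and 15 lean the same way as their members.

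Within chromosomes, some stretches held many members. In windows of 10 Mb, 15 of 77 genes at chr14:40000001-50000000 were lower, with a median of -0.57 over 29 expressed genes. At chr13:50000001-60000000, 18 of 95 genes were higher, with a median of 0.33 over 55. At chr10:120000001-130000000, 18 of 138 were lower, with a median of -0.30 over 83. In the chromosome 14 window the median deviation was -0.36 in MC38-MOCK#2, -0.048 in the line labelled MC38-FUT4 and 0.42 in MC38-FUT9. Among the 210 windows with at least 20 expressed genes, 9 had a median beyond 0.25 in either direction. These 9 held 82 members, 12.5% of all, beside 3.49% of the genes that passed. The 9 windows were picked by the same differences that chose the members. An excess of members was thus built in, and the shares are no test of clustering. A further 10 windows with fewer expressed genes also lay beyond 0.25 and are not counted among the 9.

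The longest run was 8 neighbouring genes at chr14:47276931-47739894 in GRCm38, all lower. It holds Socs4, Mapk1ip1l, Lgals3, Dlgap5, Fbxo34, Atg14, Ktn1 and an unnamed gene. Lgals3, the galectin that binds beta-galactosides, was at 2472, 2328 and 2138 in MC38-MOCK#1 and at 2518, 3062 and 2897 in MC38-DKO. It was at 5348 to 10744 in the other 3 lines, a difference of -1.49, and the median over the run was -0.79. Mapk1ip1l was at 1618 to 1754 against 2854 to 3714, and Atg14, an autophagy factor, at 150 to 191 against 238 to 337. In MC38-FUT9 Lgals3 was higher than in MC38-MOCK#2 by 1.22 ± 0.08 (SE; limma, adjusted p = 9.83e-06). A run of 3 higher genes, Nop16, Higd2a and Cltb, lay at chr13:54584185-54611344. A run of 3 lower genes, Mtdh, Laptm4b and Matn2, lay at chr15:34082694-34436242.

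MC38-MOCK#1 and MC38-DKO were not the same in every member. In 14 members they differed from each other, 13 of them lower members, beside 0.402% of all genes. Pacs1, a sorting protein of the trans-Golgi network, was at 99, 107 and 146 in MC38-MOCK#1, at 11, 6 and 7 in MC38-DKO and at 452 to 592 in the other 3 lines. Sulf2 and Hspa12b were also lower in MC38-DKO than in MC38-MOCK#1. Grem1, Sdc3, Prrx1 and Igf2r were lower in MC38-MOCK#1, as Padi4 was. The members closest to the threshold were Zfp358, Tcaf1 and Praf2, with a largest adjusted p of 0.0499, 0.0497 and 0.0497 over the 6 pairs in limma. Ero1l, Zfp827 and Tapbpl lay just outside, at 0.0501, 0.0504 and 0.0506. Annotated exon overlap with another gene was found for 101 higher and 101 lower members.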

How the data were processed

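RNA was extracted with TRIzol from 24 MC38 samples and sequenced as stranded mRNA libraries (single reads of 50 bases). Per the article and the submitters' processing notes, the authors trimmed reads, aligned them with HISAT2 2.0.4 to GRCm38, counted them per gene with featureCounts (Subread 1.5.0-p3, reads over several genes left out) and normalized them with edgeR 3.18.1. The deposited values carry the unit score: the authors' scaled read counts, rounded to whole numbers. The strand setting of the counting is not given in the sources used here. A test on counts could not be used on them.

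All samples were grouped by their labels. Genes with at most 10 zeros among 15 samples, or 6 among 9, were fitted on log2(value + 1) with limma 3.58.1 in R 4.3.3 (lmFit, contrasts, eBayes with a trend), with Benjamini-Hochberg adjustment over all genes kept. The steps were tested on simulated data. The members and the gene lists were chosen with earlier results of these data known. Samples of a line come from separate passages, and p-values measure the spread between them. Leading genes were the 12 members per direction with the largest smallest difference over the 6 pairs and a mean of at least 50 on the higher side. Up to 4 members per list, up to 5 per direction and pair of unused lines, runs of 3 or more neighbours, and genes beside the threshold were also named. The remaining members of a list (Cdh2, Ccn4, Col8a1) and Medag, Tram1l1, Mlf1 and Pacs1 were named after their values were seen. Symbols matched 52403 of 52636 identifiers. The promoter search was chosen with the members known. Promoters came from RefSeq, and the start nearest the gene's own annotated start was taken. Some members that these rules name are not reported here.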

Additional observations from a re-analysis of the deposited data

Results flagged for a closer look

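The effect of MC38-FUT9 against MC38-MOCK#2 differed from that of the line labelled MC38-FUT4 against MC38-MOCK#2 in most lower members. The difference itself was tested in limma as MC38-FUT9 minus the line labelled MC38-FUT4. At an adjusted p below 0.05, 266 of 349 lower members were higher in MC38-FUT9, and 173 of 303 higher members were lower there. These lines were not used to choose the members, and 15.5% of all genes were called higher and 15.6% lower. Samples of a line number 3, too few to look for a single sample far from the others.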

How the results depend on the processing

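The 306 higher and 352 lower members became 93 and 138 when each difference also had to exceed 1 on the log2 scale, 154 and 195 in separate fits of 6 samples per pair, and 680 and 619 when only a lack of overlap between samples was asked. Without MC38-WT the rule gave 504 higher members. Leaving out 1 sample at a time gave 184 to 315 higher and 249 to 394 lower members, with 184 without MC38-MOCK#1 sample 1 and 185 without sample 2. In the lines that did not choose the members, leaving out 1 sample gave 365 to 441 called members for MC38-FUT9 against MC38-MOCK#2, 297 to 351 for the line labelled MC38-FUT4 against MC38-MOCK#2, and 425 to 490 for MC38-FUT9 against the line labelled MC38-FUT4. Lower members higher in MC38-FUT9 than in that line numbered 248 to 276, and higher members lower there 144 to 179. With the replicate number as a block there were 267 higher and 329 lower members, and 274 and 174 members on these sides in MC38-FUT9 against the line labelled MC38-FUT4. Correlations between same-numbered samples were -0.23 to 0.21 in the 5 lines of the rule, with 8 of 30 above 0.1, and -0.12 to 0.20 in the other 3 lines, with 5 of 9 above 0.1. Not every correlation passed 0.1 in either set, so the numbers were not taken to pair the samples. The block moved no count by over 1.5 times. Other pseudocounts, filters, scalings, a fit of all 24 samples, no trend, and the removal of chromosome medians, added after seeing the data, moved neither total of members by over 1.5 times. Counts on single chromosomes did move: without the trend, chromosome 10 gave 35 lower, chromosome 13 gave 28 higher and chromosome 15 gave 14 lower members, and without chromosome medians they gave 13, 16 and 8. The cause was not tested. Of the 24 leading genes, none turned direction in any setting. Values near 0 are limited by depth.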
